A study of Homo sapiens with 16 samples.

Results

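The lysosomal enzymes and membrane proteins are 34 genes out of the 25369 in a table of RNA-seq read counts from the human papillary thyroid carcinoma lines TPC1 and K1. They were chosen by gene symbol and were grouped by what the protein does into 8 proteases (*CTSA*, *CTSB*, *CTSD*, *CTSF*, *CTSK*, *CTSS*, *CTSZ*, *TPP1*), 10 glycosidases (*GAA*, *GLA*, *GLB1*, *GUSB*, *HEXA*, *MANBA*, *MAN2B1*, *NAGLU*, *NEU1*, *FUCA1*), 4 sulfatases (*IDS*, *SGSH*, *ARSA*, *ARSB*), 4 lipid and phosphate handling proteins (*ASAH1*, *ACP2*, *PSAP*, *NPC2*) and 8 membrane proteins (*LAMP1*, *LAMP2*, *SCARB2*, *CD63*, *NPC1*, *MCOLN1*, *CLN3*, *CTNS*). Both lines carry wild type p53. Cells received 0.2% DMSO as vehicle, 10 µM nutlin, 25 µM GSK2830371 or both drugs for 24 h, with 2 libraries of stranded polyadenylated RNA per group and 16 in all. Nutlin (nutlin-3a) frees p53 from its repressor MDM2, and GSK2830371 inhibits the phosphatase PPM1D, another repressor of p53. TPC1 was grown in RPMI and K1 in DMEM, so line and medium cannot be told apart. Each line is 1 established culture model, and the study describes its replicates as biological ones that were prepared separately. TPC1 libraries are named by their column numbers, 1 and 3, and K1 libraries are numbered 1 and 2.

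Lysosomes are acidic organelles in which hydrolases break down proteins, glycans, sulfated sugars and lipids delivered by endocytosis and autophagy. Most of the soluble enzymes are tagged with mannose 6-phosphate in the Golgi and carried to the lysosome by receptors, while a proton pump keeps the lumen acidic and membrane proteins export the products. In thyroid follicular cells, lysosomal proteases release thyroid hormone from endocytosed thyroglobulin. Transcription factors of the MiT/TFE family (TFEB, TFE3, MITF, TFEC) bind a palindromic element named CLEAR, with the core CACGTG, in the promoters of many of these genes, and inherited loss of single enzymes causes storage diseases.

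The TPC1 libraries held 30789887 to 76648552 counts each, and those of K1 held 28888686 to 37161241. Levels below are CPM, the reads of a gene scaled to a common library total. Differences are log2 fold changes from edgeR's quasi-likelihood test, with ± giving the standard error, and adjusted p is by Benjamini-Hochberg over all genes tested. A gene was called raised or lowered where the adjusted p was below 0.05 and the fold change was beyond 1.5. Over all genes tested the median log2 fold change lay between −0.03 and 0.02 in every comparison. The thyroid transcription factor *PAX8* was at 326 CPM in TPC1 and 770 CPM in K1 under DMSO, whereas the receptor *TSHR* had no count in either line. The p53 targets *CDKN1A* and *MDM2* rose under nutlin by 5.61 and 4.96 log2 in TPC1 and by 3.16 and 3.05 in K1.

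To show where the CLEAR core lies in these genes, promoters of 250 bases before to 50 after the start were taken from RefSeq (GRCh38.p14), which held 23 of the 34 members. The core, a version longer by 1 base and the full palindrome were searched on both strands, each contained in the next. The core CACGTG was present in 9 of the 23 promoters, compared with 7.255% of all 35093 promoters in the table and 9.77% of the 11596 belonging to tested genes. The longer TCACGTG was found in 8 of 23 (3.707% of all, 5.55% of tested genes), and the palindrome TCACGTGA in 5 of 23 (0.9803% and 1.785%). A match of letters is a description and not a bound site. The 8 windows that hold TCACGTG are printed on the strand of the gene with the match in capitals, where a match on the opposite strand reads CACGTGA, and their positions were found by exact match in GRCh37.
CTSA (chr20:44519940-44519963): gccggagtTCACGTGActcgtaca
CTSD (chr11:1785190-1785212): gccgcgccCACGTGAccggtccg
CTSF (chr11:66336186-66336208): ataacaagCACGTGAtagaggtc
GAA (chr17:78075340-78075363): cccgccggTCACGTGAcccgcctc
NEU1 (chr6:31830711-31830733): ctgcgtgaTCACGTGggaggaga
LAMP1 (chr13:113951544-113951567): ggcgcagcTCACGTGAcaagcgct
MCOLN1 (chr19:7587487-7587510): ctaccgggTCACGTGAccgaggca
CLN3 (chr16:28503382-28503405): gggtgctgTCACGTGAtccgacaa
The matches began 26 bases before the start in *CTSA*, 47 in *CTSD*, 123 in *CTSF*, 32 in *GAA*, 127 in *NEU1* and 15 in *MCOLN1*. In *LAMP1* and *CLN3* the match began 2 bases before the start and crossed it. These distances are from the RefSeq start. The gene positions given below are from GENCODE and can begin farther upstream, so the matches in *CTSA*, *CTSD*, *CTSF*, *GAA* and *CLN3* lie within them.

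Under DMSO, the 34 genes together took 5133 and 5107 CPM of the TPC1 libraries and 6419 and 6251 CPM of the K1 libraries. Levels were compared between genes per kilobase of transcript. In TPC1 the highest members were the aspartic protease *CTSD* (305.6 CPM per kb) and *PSAP* (245.3), the precursor of the saposins that help enzymes reach their lipid substrates. In K1 they were the tetraspanin *CD63* (1069 CPM per kb) and the cysteine protease *CTSB* (369.9). Glycosidases and sulfatases were lower, at most 28.2 CPM per kb in TPC1 (*MAN2B1*, lysosomal alpha-mannosidase) and at most 42.26 in K1 (*GLB1*, beta-galactosidase). Among the sulfatases the highest were *SGSH* at 10.58 CPM per kb in TPC1 and *IDS* at 23.37 in K1.

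**Figure D1:**
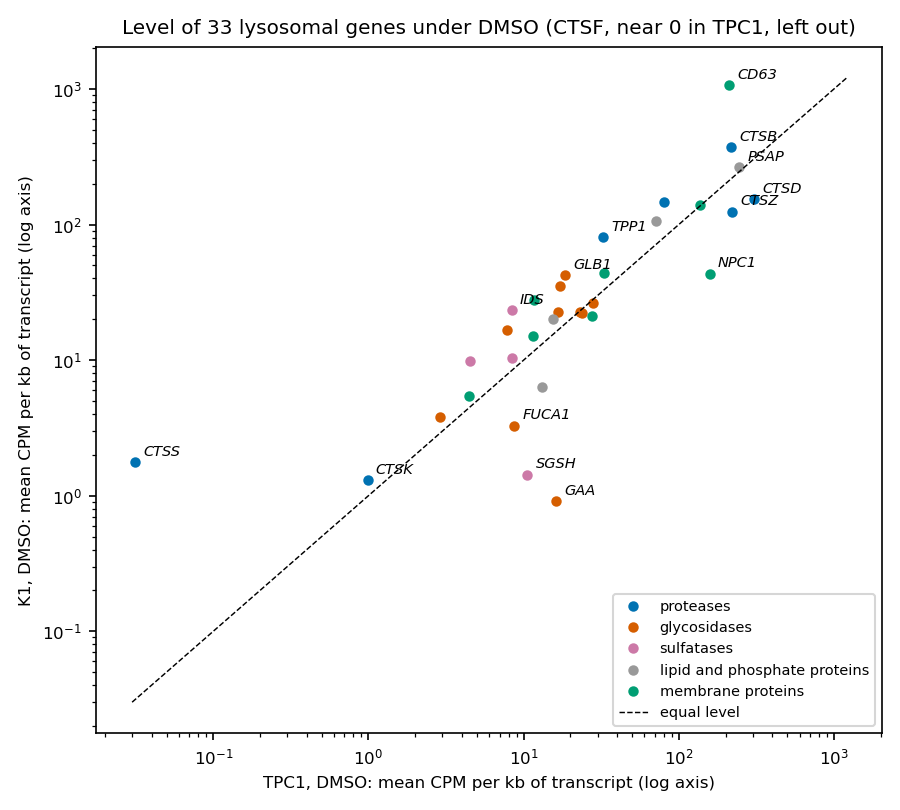
Mean level under DMSO in TPC1 (x axis) against K1 (y axis) for 33 members, both in CPM per kilobase of transcript on log axes, coloured by class, with a dashed line of equal level and with *CTSF* left out because it was near 0 in TPC1. *CD63* and *CTSS* lie far above the line and *GAA*, *SGSH* and *NPC1* below it.

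K1 and TPC1 already differed in many members before any drug was given. Under DMSO, 12 of the 34 members were higher in K1 (25% of the 16738 genes tested) and 7 were lower (21.2%), by edgeR's quasi-likelihood test on all 16 libraries, so the share lowered was close to that of all genes. The median over the members was 0.39 log2. The cysteine protease *CTSF* (chromosome 11, 66330935 to 66336350) had at most 1 count in each TPC1 library and no count in 7 of the 8, against 13.5 and 11.9 CPM in the K1 DMSO libraries. Against a floor of 3 counts per library this is at least 146.6-fold higher in K1. *CTSS* (chromosome 1, 150702555 to 150738433), a cysteine protease best known from antigen presenting cells, was at 0.163 and 0.0828 CPM in TPC1 and 6.65 and 7.27 CPM in K1 (5.93 ± 0.243, adjusted p = 1.866e-12). The lines did not overlap for these proteases, and neither was tested within TPC1 because its counts did not pass the filter of 0.1 CPM. From a list of 7 leukocyte and macrophage markers, *CD14* (3.21), *CSF1R* (2.74) and *CD68* (0.74) were also called higher in K1, *LYZ* and *ITGAM* were not called, and *PTPRC* and *AIF1* were not tested, with *AIF1* at 0 in both lines and *PTPRC* at 0 in TPC1 and 0.0411 CPM in K1. The list summed to 35.13 and 37.46 CPM in TPC1 and to 62.08 and 71.56 CPM in K1, and its part in the level of *CTSS* was not tested.

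*CD63* (chromosome 12, 56119107 to 56123491) stood at 202 and 227 CPM in TPC1 and at 1101 and 1086 CPM in K1. It was 5.076-fold higher in K1 (2.34 ± 0.0897, adjusted p = 7.676e-13). The acid alpha-glucosidase *GAA* (chromosome 17, 78075332 to 78093680), which degrades glycogen, went the other way, at 62.6 and 58 CPM in TPC1 and 2.99 and 3.82 CPM in K1. That is 17.7-fold lower in K1 (−4.15 ± 0.103, adjusted p = 4.24e-15), the largest decrease among the members. The heparan sulfatase *SGSH* (chromosome 17, 78180515 to 78194722) was at 30.8 and 26.5 CPM in TPC1 and 4.21 and 3.53 CPM in K1 (7.405-fold lower, adjusted p = 3.439e-12). *NPC1* (chromosome 18, 21086148 to 21166470), which exports cholesterol from the lysosome, was at 810 and 696 CPM in TPC1 and 218 and 195 CPM in K1 (−1.87 ± 0.124, adjusted p = 9.127e-10). None of these groups overlapped. *GLB1* (chromosome 3, 33038101 to 33138694), which also gives the acidic beta-galactosidase activity used to stain senescent cells, was at 45.1 and 48.7 CPM in TPC1 and 109 and 105 CPM in K1 (1.18 ± 0.0777). *IDS* (chromosome X, 148558519 to 148602635), the iduronate sulfatase, was at 67.9 and 58.7 CPM in TPC1 and 182 and 172 CPM in K1 (1.48 ± 0.0821). Both were more than doubled in K1, again without overlap. The other members called higher in K1 were *TPP1*, *LAMP2*, *ARSA*, *NAGLU*, *NEU1*, *CTSA* and *CTSB*, by 0.76 to 1.31 log2, and the others called lower were *CTSZ*, *CTSD*, *ACP2* and *FUCA1*, by −0.84 to −1.40.

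Nutlin raised most lysosomal genes in TPC1. Of the 32 members tested, 21 were raised (17.5% of the 15273 genes tested) and 0 were lowered (18%), by edgeR's quasi-likelihood test. The median was 0.80 log2 over the members and −0.0018 over all genes tested, and 29 of 32 members had a positive value. At an unadjusted p below 0.05, 26 were higher (30% of all genes tested) and 1 lower (30.5%), and DESeq2 called 21 raised and 0 lowered. The nutlin and DMSO libraries did not overlap for 28 members that were higher (37.1% of all genes tested) and 2 that were lower (40.5%). The sum of all members rose from 5133 and 5107 CPM to 8856 and 8877 CPM. In bulk RNA, more transcript per cell and more cells with the transcript cannot be told apart.

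By class, 8 of 10 glycosidases were raised (median 1.13), 3 of 4 sulfatases (0.98), 3 of 4 lipid and phosphate handling proteins (0.90), 4 of 6 tested proteases (0.82) and 3 of 8 membrane proteins (0.57). All 8 membrane proteins had a positive value and 6 had an adjusted p below 0.05, but *SCARB2* (0.57), *LAMP2* (0.56) and *CD63* (0.51) stayed under the fold threshold. The count of 3 rested on values near that threshold. *CLN3* lost its call with the trend of GC content and transcript length removed (0.56) and with scaling by library size alone (0.58), while *SCARB2* (0.67) and *LAMP2* (0.72) gained one with the trend removed. *SCARB2* (0.66) and *LAMP2* (0.62) were also called without DMSO replicate 1, and *CD63* (0.62) without DMSO replicate 3. Summed glycosidase level went from 453 and 478 CPM to 1028 and 1041 CPM. Summed protease level went from 1983 and 2093 CPM to 3379 and 3490 CPM, and summed membrane protein level from 1728 and 1593 CPM to 2465 and 2403 CPM. In each of these sums both nutlin libraries lay above both DMSO libraries. Abundant members weigh most in a sum, and within the proteases *CTSD* alone went from 604 and 652 CPM to 1501 and 1559 CPM. Whether the classes differed from each other was described by these counts and medians and was not tested.

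**Figure D2:**
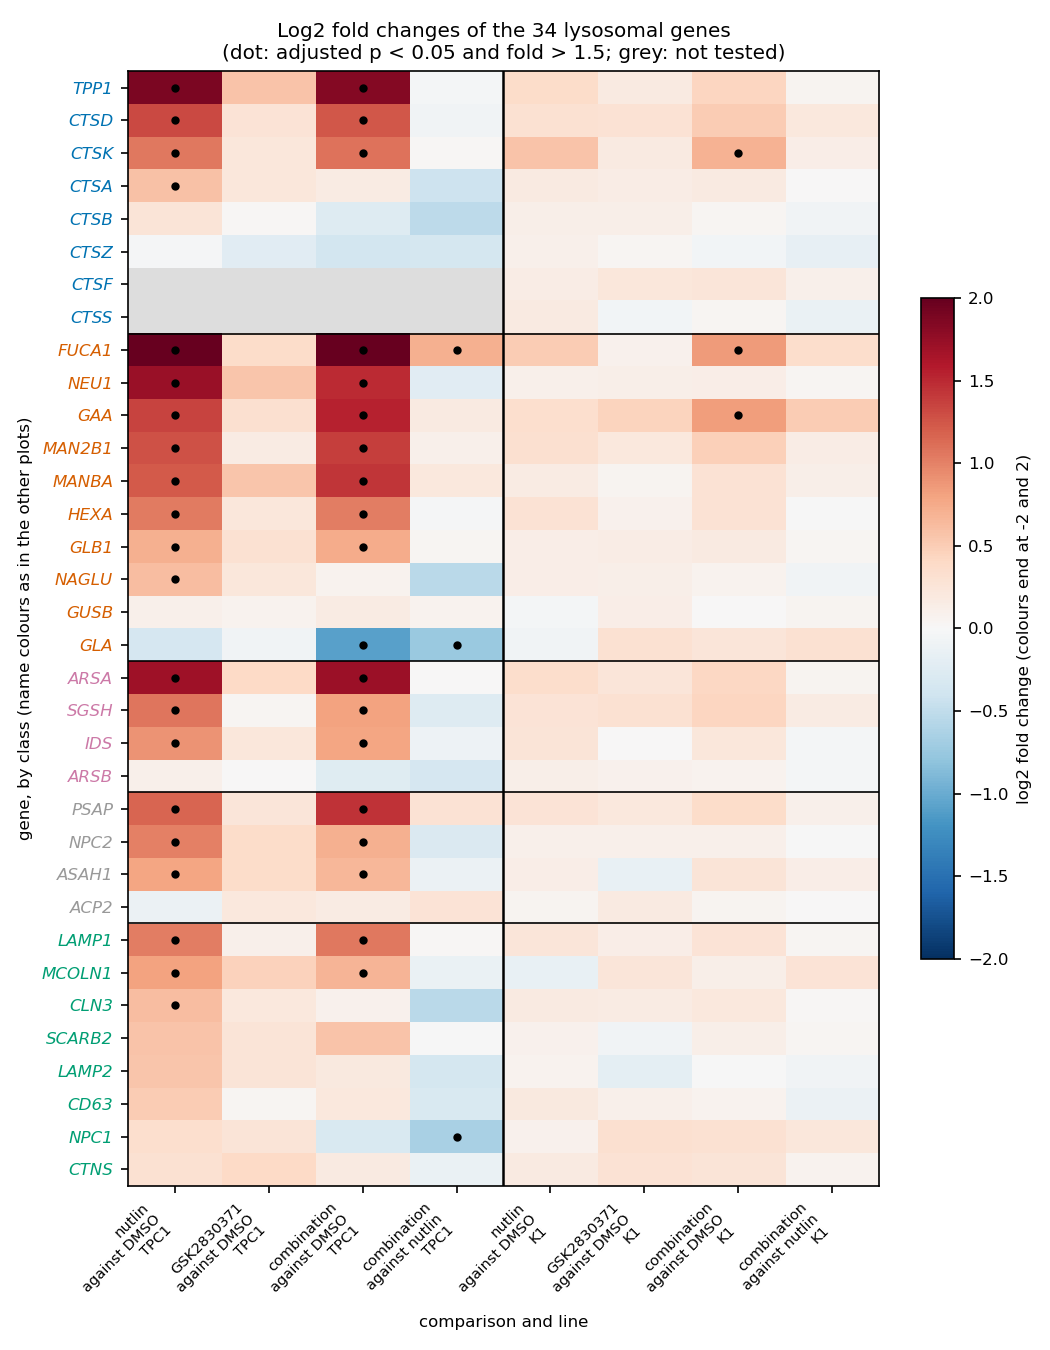
Log2 fold change of each member (rows, by class) for each drug against DMSO and for the combination against nutlin in TPC1 and K1 (columns), with red above 0, blue below 0, colours ending at −2 and 2, grey for genes not tested and a dot for called changes. Under nutlin and the combination in TPC1 most rows are red and *GLA* is blue, and in K1 the dots are those of *FUCA1*, *GAA* and *CTSK* under the combination.

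The member with the largest increase was the fucosidase *FUCA1* (chromosome 1, 24171567 to 24194780), which trims fucose from glycoproteins. It read 17.5 and 18 CPM in the TPC1 DMSO libraries and 116 CPM in each nutlin library, a 6.69-fold rise (2.74 ± 0.102, adjusted p = 4.819e-08). The groups were far apart and the replicates of each group differed little. The tripeptidyl peptidase *TPP1* (chromosome 11, 6633999 to 6640679), whose loss causes a childhood neuronal ceroid lipofuscinosis, read 113 CPM in each DMSO library and 400 and 410 CPM under nutlin (3.67-fold, adjusted p = 2.044e-06). The sialidase *NEU1* (chromosome 6, 31825436 to 31830682) read 56.7 and 59.1 CPM under DMSO and 192 and 182 CPM under nutlin (3.304-fold, adjusted p = 1.862e-05). For both genes every nutlin library lay far above the DMSO libraries.

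*ARSA* (chromosome 22, 51061182 to 51066601), the sulfatase that degrades sulfatide, read 19.4 and 19.6 CPM under DMSO and 63.6 and 60.3 CPM under nutlin (1.70 ± 0.0779, adjusted p = 1.962e-07). *GAA*, whose promoter holds a TCACGTGA palindrome, went from 62.6 and 58 CPM to 152 and 151 CPM (1.36 ± 0.0811, adjusted p = 1.07e-06). *CTSD* (chromosome 11, 1773982 to 1785803) went from 604 and 652 CPM to 1501 and 1559 CPM (1.32 ± 0.0805, adjusted p = 1.244e-06). These 3 enzymes come from 3 classes, and in each the nutlin libraries lay above the DMSO libraries. *MAN2B1* (chromosome 19, 12757325 to 12777556) read 87.3 and 92.3 CPM under DMSO and 211 and 213 CPM under nutlin (2.418-fold). *PSAP* (chromosome 10, 73576055 to 73611008) read 682 and 666 CPM under DMSO and 1484 and 1457 CPM under nutlin (2.232-fold). *LAMP1* (chromosome 13, 113951554 to 113977987), the major glycoprotein lining the lysosomal membrane, read 384 and 361 CPM under DMSO and 748 and 726 CPM under nutlin (2.024-fold, adjusted p = 1.834e-05). *LAMP1* was the membrane protein with the largest increase, ahead of the calcium channel *MCOLN1* (0.81) and *CLN3* (0.62). *GLB1* went from 45.1 and 48.7 CPM to 73.5 and 76.8 CPM (1.639-fold), and *IDS* from 67.9 and 58.7 CPM to 121 and 109 CPM (1.856-fold). The smallest increases called were those of *NAGLU* (0.61) and the serine carboxypeptidase *CTSA* (0.59), and both calls were lost without DMSO replicate 1 (0.53 and 0.52), *NAGLU* also without nutlin replicate 3 (0.55) and *CTSA* without nutlin replicate 1 (0.58). With library size alone neither was called (0.58 and 0.56), and *NAGLU* was also not called with the GC and length trend removed (0.55).

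*MANBA* (1.22), *SGSH* (1.07), *CTSK* (1.06), *HEXA* (1.04), *NPC2* (1.00) and *ASAH1* (0.79) were also raised in TPC1 under nutlin. The other tested members were not called. *GLA* (chromosome X, 100648261 to 100663000), the alpha-galactosidase lacking in Fabry disease, read 28.4 and 34.7 CPM under DMSO and 23.4 and 25.4 CPM under nutlin, a value of −0.34 ± 0.106 (adjusted p = 0.02249) within the fold threshold. *CTSB* read 808 and 821 CPM under DMSO and 943 and 971 CPM under nutlin (0.26 ± 0.0783, adjusted p = 0.01741). *NPC1* read 810 and 696 CPM under DMSO and 957 and 906 CPM under nutlin (0.34 ± 0.148, adjusted p = 0.07851). All 3 stayed within 1.5-fold although the groups did not overlap. *GUSB* (0.10), *ARSB* (0.10), *CTSZ* (−0.02), *ACP2* (−0.11) and *CTNS* (0.31) each had an adjusted p above 0.05. *GUSB* and *IDS* have pseudogene copies, so the reads assigned to them are uncertain.

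Of the 13 raised members with a promoter in the table, 7 held TCACGTG, and of the 9 members not called, 0 did. For the core CACGTG the counts were 7 of 13 and 1 of 9, the latter being *CD63*. Members without a promoter in the table, among them the raised *ARSA*, *PSAP*, *HEXA* and *MANBA*, are not in these counts. *FUCA1* and *TPP1*, the members with the largest increases, held none of the 3 motifs in the 300 bases searched. These counts are a description of members whose calls were known.

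**Figure D3:**
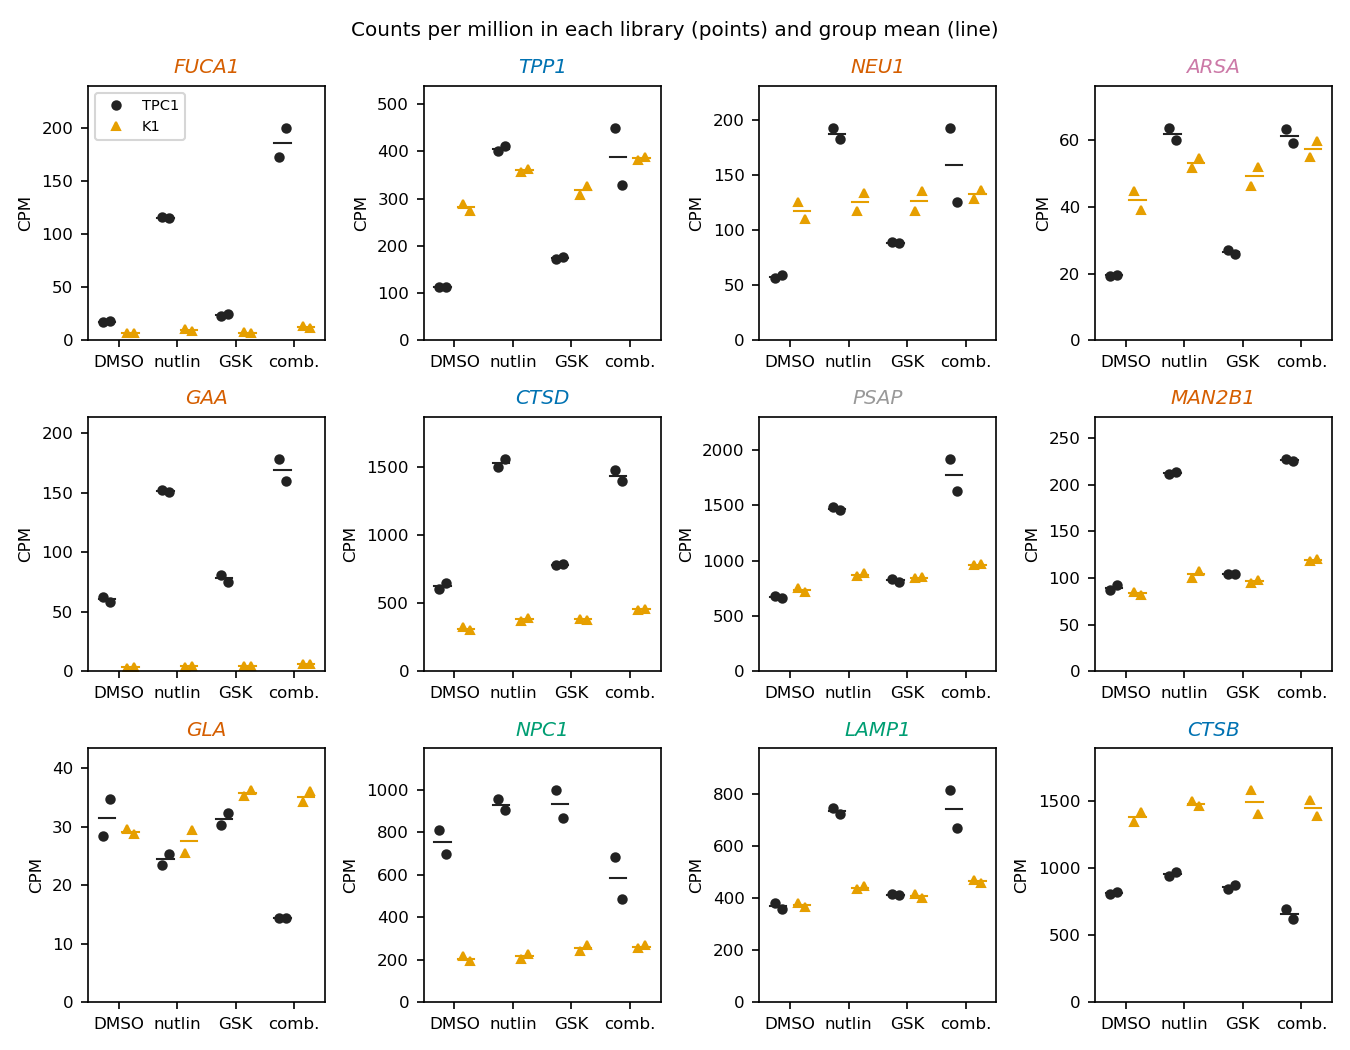
CPM in every library for 12 members in TPC1 and K1, with 1 point per library (dark circles for TPC1, orange triangles for K1) and a line at the mean of the 2 libraries of each treatment. In TPC1 *FUCA1* climbs from 17.5 and 18 CPM under DMSO to 173 and 200 CPM under the combination, and *GLA* falls to 14.3 and 14.5 CPM.

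GSK2830371 alone changed no member past both thresholds in TPC1. It raised 0 of 32 members (0.72% of all genes tested) and lowered 0 (0.681%) by edgeR's quasi-likelihood test, and DESeq2 also called 0 each way. At an unadjusted p below 0.05, 18 were higher (10.2% of all genes tested) and 1 lower (10.5%). The median was 0.24 log2, and 30 of 32 values were positive. The adjusted p was below 0.05 for 3 members that were higher, *TPP1*, *MANBA* and *ARSA* (1.87% of all genes tested), and for 0 that were lower (1.64%). *TPP1* read 172 and 176 CPM with GSK2830371 against 113 CPM in each DMSO library, a 1.486-fold difference (0.57 ± 0.121, adjusted p = 0.04044). The beta-mannosidase *MANBA* read 17.4 and 17.5 CPM against 11.8 and 11.3 CPM (0.55 ± 0.0821, adjusted p = 0.01615). *ARSA* read 27 and 26 CPM against 19.4 and 19.6 CPM (0.39 ± 0.0774, adjusted p = 0.03228). The groups did not overlap for these 3 genes, and over all members they did not overlap for 27 that were higher (30.3% of all genes tested) and 1 that was lower (19.6%). Summed over all members, the GSK2830371 libraries held 6059 and 5980 CPM.

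The combination raised 18 of 32 members in TPC1 (22.5% of all genes tested) and lowered 1 (21.7%), with a median of 0.70 log2. The glycosidases had 7 raised and 1 lowered of 10, the sulfatases 3 of 4 raised, the lipid and phosphate handling proteins 3 of 4, the proteases 3 of 6 and the membrane proteins 2 of 8. Without combination replicate 1, *ASAH1* (0.58), *NPC2* (0.54) and *MCOLN1* (0.48) fell under the fold threshold. *SCARB2* (0.57) passed it without DMSO replicate 1 (0.66), without combination replicate 3 (0.64) and with the GC and length trend removed (0.65). *FUCA1* reached 173 and 200 CPM, 10.9-fold above DMSO (adjusted p = 9.977e-09). *PSAP* reached 1914 and 1626 CPM (2.72-fold) and *GAA* 178 and 159 CPM (2.897-fold). *GLA*, the member lowered, read 14.3 and 14.5 CPM against 28.4 and 34.7 CPM under DMSO (−1.08 ± 0.108, adjusted p = 2.176e-05). It was 2.118-fold lower, and the combination libraries lay below those of the other 3 treatments in TPC1. Nutlin and the combination were compared with the same DMSO libraries.

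**Figure D4:**
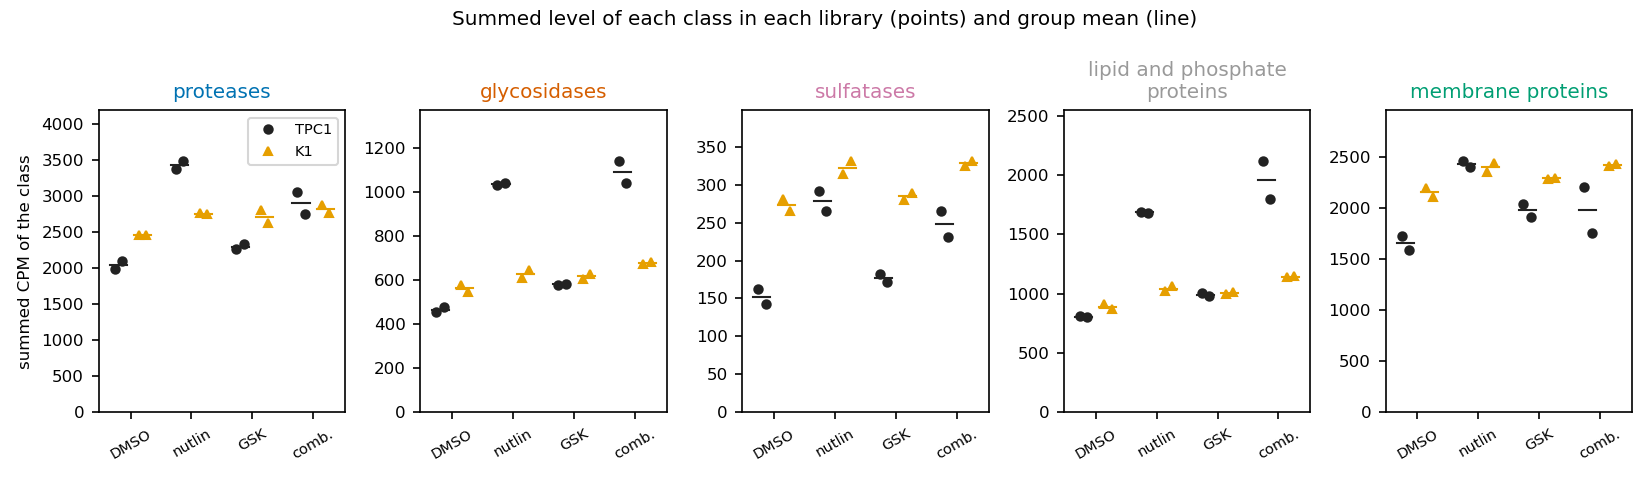
Summed CPM of the members of each class in every library of TPC1 and K1, by treatment, with 1 point per library (dark circles for TPC1, orange triangles for K1) and a line at the group mean. In TPC1 the glycosidase sum goes from 453 and 478 CPM under DMSO to 1141 and 1041 CPM under the combination, while the membrane protein sum is 2207 and 1754 CPM there, against 2465 and 2403 CPM under nutlin. Within the membrane protein sum, *NPC1* alone is 686 and 487 CPM under the combination and 957 and 906 CPM under nutlin.

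Adding GSK2830371 to nutlin raised 1 member further in TPC1 (6.46% of all genes tested) and lowered 2 (5.66%). The share of members lowered was close to that of all genes, and the share raised was below it. *FUCA1* was higher with both drugs, at 173 and 200 CPM against 116 CPM in each nutlin library (0.70 ± 0.0943, adjusted p = 0.0009993). *GLA* was lower, at 14.3 and 14.5 CPM against 23.4 and 25.4 CPM (−0.74 ± 0.109, adjusted p = 0.001581). *NPC1* was lower, at 686 and 487 CPM against 957 and 906 CPM (−0.65 ± 0.148, adjusted p = 0.01201). In none of the 3 did the groups overlap. The median over the members was −0.11, and at an adjusted p below 0.05, whatever the fold, 10 members were lower (12.9% of all genes tested) and 3 higher (13.2%). *CTSB* was among the 10, at 695 and 625 CPM against 943 and 971 CPM, and the 3 were *FUCA1*, *PSAP* and *ACP2*. Combination replicate 3 was lower than replicate 1 in the sum of all members, at 7581 against 8783 CPM. Without it, *FUCA1* was at 0.58 and *NPC1* at −0.43 and neither was called, and *NPC1* was also not called without nutlin replicate 1 (−0.61) or 3 (−0.69).

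The interaction is the log2 effect of the combination minus the sum of the log2 effects of the single drugs. In TPC1 it was positive and called for 0 of 32 members (2.82% of all genes tested) and negative and called for 6 (3.5%), with a median of −0.34 and a negative value for 28 members. At an unadjusted p below 0.05, 1 was positive (12.3% of all genes tested) and 19 negative (12.7%), and DESeq2 called 0 positive and 9 negative. Of the 6, 3 were membrane proteins, *NPC1* (−0.91 ± 0.209, adjusted p = 0.03195), *CLN3* (−0.75 ± 0.164, adjusted p = 0.02619) and *LAMP2* (−0.61 ± 0.123, adjusted p = 0.01963). The others were *NAGLU* (−0.77), *GLA* (−0.68) and *CTSA* (−0.65).

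*NAGLU* (chromosome 17, 40688259 to 40696467), an enzyme of heparan sulfate breakdown, read 18.1 and 20.4 CPM under DMSO, 27.5 and 30 under nutlin, 23.3 and 23.7 under GSK2830371 and 23.2 and 16.4 under the combination. *CLN3* (chromosome 16, 28485432 to 28506896), a membrane protein of another ceroid lipofuscinosis, read 45.8 and 47.1 CPM under DMSO, 69.5 and 69.8 under nutlin, 54.5 and 57.3 under GSK2830371 and 54.3 and 40.9 under the combination. Both were higher with either drug alone than with DMSO in each library, and the combination overlapped DMSO. *NPC1* read 998 and 868 CPM under GSK2830371, so its combination libraries lay below both single drugs. The number of negative interactions called was 0 without either nutlin library, either GSK2830371 library or combination replicate 3, 3 and 2 without DMSO replicates 1 and 3, and 12 without combination replicate 1. With the replicate number as a block, 10 members were called negative.

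In K1 nutlin moved the same genes by little. It raised 0 of 34 members (3.84% of the 15900 genes tested) and lowered 0 (5.43%) by edgeR's quasi-likelihood test, and DESeq2 called 0 each way. At an unadjusted p below 0.05, 16 were higher (18.5% of all genes tested) and 0 lower (21.3%). After adjustment 12 were higher with folds under 1.5 (13.5% of all genes tested were higher at an adjusted p below 0.05) and 0 lower (16.6%), the median was 0.17, and 31 of 34 values were positive. *FUCA1* read 6.57 and 6.89 CPM under DMSO and 10.4 and 8.71 CPM under nutlin (0.51 ± 0.119, adjusted p = 0.005091). *TPP1* read 290 and 273 CPM under DMSO and 357 and 363 CPM under nutlin (0.37 ± 0.053, adjusted p = 0.0001417). *ARSA* read 44.8 and 39.3 CPM under DMSO and 51.9 and 54.9 CPM under nutlin (0.36 ± 0.0802, adjusted p = 0.003999). In each of the 3, both nutlin libraries lay above both DMSO libraries, as they did for 25 members (30.1% of all genes tested), against 2 for which they lay below (34%). *NEU1* read 126 and 110 CPM under DMSO and 117 and 133 CPM under nutlin, and these groups overlapped (0.10 ± 0.0854, adjusted p = 0.4165).

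GSK2830371 alone raised 0 of 34 members in K1 (0.736% of all genes tested) and lowered 0 (1.5%) by edgeR, with 17 higher (15.4% of all genes tested) and 1 lower (15.9%) at an unadjusted p below 0.05 and 0 each way by DESeq2. At an adjusted p below 0.05, 9 members were higher (8.38% of all genes tested) and 0 lower (10.8%), and the median was 0.14. In this comparison the log2 fold change moved with the GC content of the transcript, with a Spearman correlation of 0.466 across 15217 genes, which are not independent replicates, and of 0.661 across the 34 members. The members' median GC was 52.04%, against 48.68% for the genes tested. With the trend of GC and length removed, 1 of the 34 was higher at an adjusted p below 0.05, *NPC1*, and the median was 0.065.

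The combination raised 3 members in K1 (7.62% of all genes tested) and lowered 0 (8.09%), with 21 higher (24.7% of all genes tested) and 0 lower (25.7%) at an unadjusted p below 0.05 and 0 lowered by DESeq2. The share of members raised was close to that of all genes. *FUCA1* read 13.3 and 11.6 CPM against 6.57 and 6.89 CPM under DMSO (0.86 ± 0.115, adjusted p = 4.274e-05). *GAA* read 6.12 and 6.3 CPM against 2.99 and 3.82 CPM (0.83 ± 0.141, adjusted p = 0.0003063). *CTSK* (chromosome 1, 150767356 to 150782053), the collagen degrading protease of osteoclasts, read 3.17 and 3.91 CPM against 1.85 and 2.4 CPM (0.70 ± 0.184, adjusted p = 0.00696). All 3 were low genes in K1, with no overlap between the groups. *CTSK* was not called without DMSO replicate 1 (0.53) or combination replicate 2 (0.55). In all, 20 members were higher at an adjusted p below 0.05 (21% of all genes tested) and 0 lower (22.2%), and the median was 0.23. For 30 members both combination libraries lay above both DMSO libraries (40% of all genes tested), and for 0 they lay below (33%).

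Against nutlin, the combination raised 0 members in K1 (1.16% of all genes tested) and lowered 0 (1.52%) by edgeR, with 7 higher (13.1% of all genes tested) and 2 lower (13.2%) at an unadjusted p below 0.05 and 0 by DESeq2. *GAA*, *GLA*, *MCOLN1* and *CTSD* were higher at an adjusted p below 0.05 (5.89% of all genes tested), by 0.21 to 0.50 log2, and 0 were lower (6.53%). *GLA* in K1 read 34.1 and 36.1 CPM under the combination and 25.6 and 29.5 CPM under nutlin, above it, whereas in TPC1 the combination was below nutlin. The K1 interaction was called for 0 members as positive (1.79%) and 0 as negative (0.654%), with 1 (12.5%) and 2 (11%) at an unadjusted p below 0.05 and 0 by DESeq2. Its median was −0.10, and 0.008 with the GC and length trend removed.

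The lines were compared directly in the fit of all 16 libraries. The nutlin effect was smaller in K1 than in TPC1 for 17 of the 34 members (10.5% of the 16738 genes tested) and larger for 0 (8.73%), with 1 larger (18.7%) and 23 smaller (21.2%) at an unadjusted p below 0.05 and 0 larger by DESeq2. The differences called ran from −0.62 for *GLB1* to −2.26 ± 0.161 for *FUCA1* (adjusted p = 3.137e-08). *NEU1* differed by −1.66 ± 0.195 (adjusted p = 7.808e-06) and *TPP1* by −1.55 ± 0.14 (adjusted p = 4.81e-07). The 17 genes comprised 7 glycosidases, 3 sulfatases, 3 lipid and phosphate handling proteins, 2 proteases and 2 membrane proteins. *TPP1*, *NEU1* and *ARSA* started higher in K1 under DMSO, and *FUCA1*, *GAA* and *CTSD* started lower. Under nutlin *TPP1* stood at 400 and 410 CPM in TPC1 and 357 and 363 CPM in K1, closer than under DMSO. The p53 targets *CDKN1A* (−2.48 ± 0.149) and *MDM2* (−1.95 ± 0.116) also had a smaller nutlin effect in K1, and both were called. The part of a smaller p53 response in the members' differences was not tested.

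**Figure D5:**
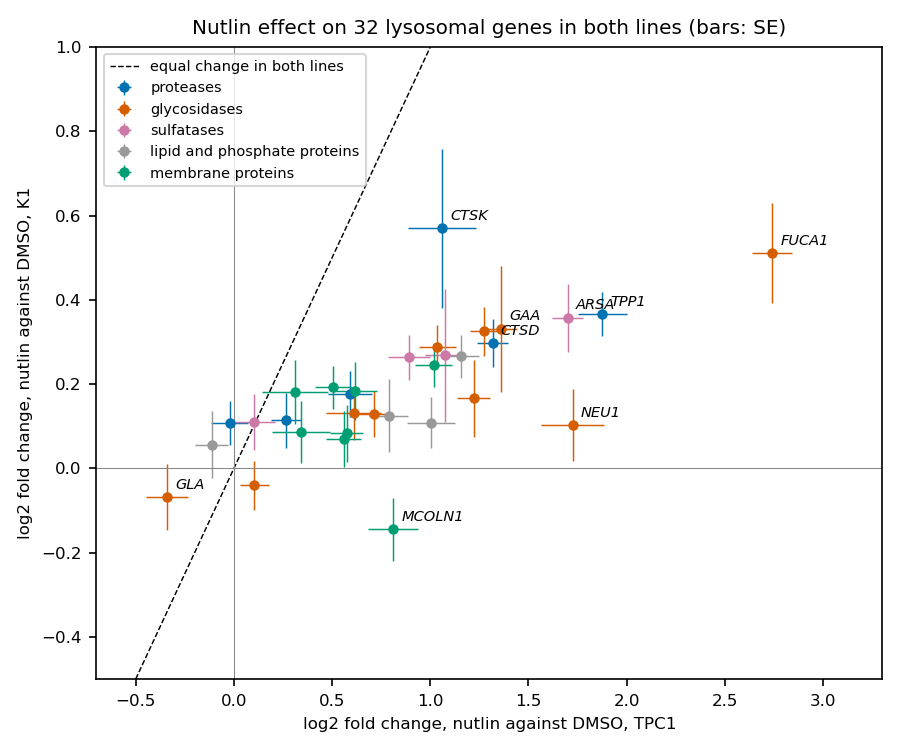
Nutlin effect in TPC1 (x axis) against that in K1 (y axis, on a wider scale) for the 32 members tested in both lines, as log2 fold changes from the fits by line with bars for the standard error, coloured by class, and a dashed line of equal change. Most points lie below the dashed line, with *FUCA1* farthest out at 2.74 in TPC1 and 0.51 in K1.

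The order of the members was partly shared between the lines, which have no libraries in common. Over the 32 members tested in both, the nutlin effects had a Pearson r of 0.697, against 0.638 over all 14509 genes, and 28 had the same sign (74.29% of all genes). For GSK2830371 alone r was 0.0005 over the members and 0.097 over all genes. For the combination r was 0.714 over the members and 0.677 over all genes. Genes within a library are not independent replicates, so these values describe the pattern and carry no test.

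The combination effect was smaller in K1 for 14 members (13.8% of all genes tested) and larger, or less negative, for 2 (11.9%). *FUCA1* differed by −2.62 ± 0.159 (adjusted p = 4.026e-09). The 2 in the other direction were the members that the combination lowered below nutlin in TPC1, *GLA* (1.30 ± 0.151, adjusted p = 4.67e-06) and *NPC1* (0.59 ± 0.17, adjusted p = 0.0112). *GLA* read 34.1 and 36.1 CPM in K1 with both drugs against 29.6 and 28.7 CPM under DMSO, and *NPC1* read 255 and 268 CPM against 218 and 195 CPM. For both genes the combination libraries of K1 lay above DMSO and those of TPC1 below it. The difference of *NPC1* was not called without TPC1 DMSO replicate 1 (0.51), TPC1 combination replicate 3 (0.35), K1 DMSO replicate 2 (0.51) or K1 combination replicate 2 (0.56).

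Other genes of the lysosome also rose under nutlin in TPC1, from a list of 73 chosen by function. Of the other hydrolases 12 of 23 were raised and 1 lowered, including *PLD3* (1.53) and the acid sphingomyelinase *SMPD1* (1.43). Of the subunits of the proton pump, the V-ATPase, 8 of 17 were raised and 1 lowered, including *ATP6AP2* (1.21) and *ATP6V0A1* (1.10). Of the genes for enzyme sorting and maturation 4 of 10 were raised and 1 lowered. The mannose 6-phosphate receptor *IGF2R* rose by 0.82, and the trafficking adaptor *GGA2* fell by 1.26. Of the other membrane proteins and mTORC1 anchors 4 of 16 were raised and 0 lowered, including the GTPase *RRAGC* (1.32) and the sialic acid exporter *SLC17A5* (0.96). With the factors described next, 30 of the 73 were raised (17.5% of all genes tested) and 3 lowered (18%). In K1, nutlin raised 0 of the 72 tested (3.84% of all genes tested) and lowered 0 (5.43%) by edgeR. At an unadjusted p below 0.05, 32 were higher in K1 (18.5% of all genes tested) and 4 lower (21.3%).

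Of the 7 MiT/TFE factors and regulators listed, *FLCN* and *TFEC* were raised. Under nutlin in TPC1 *TFEB* was at 0.11 (adjusted p = 0.5453) and *TFE3* at 0.26 ± 0.0736 (adjusted p = 0.01402), both under the fold threshold, and *MITF* was at −0.21. *FLCN*, which together with Rag GTPases holds these factors in the cytoplasm, rose by 0.94 ± 0.147 (adjusted p = 0.0005333). *TFEC* had 1 and 0 counts in the TPC1 DMSO libraries and 13 and 30 under nutlin, at least 5.193-fold higher against a floor of 3 counts per library, from a very low level. The lysosomal glycoprotein *CD68*, which also serves as a macrophage marker, read 34.2 and 36.5 CPM under DMSO and 66.3 and 71.7 CPM under nutlin in TPC1. The 7 leukocyte and macrophage markers summed to 35.13 and 37.46 CPM under DMSO and 66.78 and 72.29 CPM under nutlin, nearly all of it *CD68*, with 2 markers raised, 2 lowered and 3 not tested. Its part in the members' values was not tested, and *PTPRC* had no count in these libraries.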

How the data were processed

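Stranded polyadenylated RNA of TPC1 and K1 cells was sequenced in 16 libraries, 2 per treatment and line. Reads were mapped to GRCh37 with TopHat2 (2.0.13), low-quality alignments were dropped, and HTSeq (0.6.1) assigned reads to genes with the strand taken into account, with versions from the submitters' processing notes. The authors deposited the resulting raw counts for 25369 gene symbols, without normalization. K1 columns were matched to samples by replicate number. TPC1 columns numbered 3 were assigned to a treatment only, since the labels number those replicates 1 and 2.

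CPM were computed from the deposited counts and the library totals, and carry no scaling other than the total. Genes above 0.1 CPM in at least 2 libraries were tested in edgeR 4.0.16 (R 4.3.3) with TMM scaling and the quasi-likelihood test, jointly over the 8 libraries of a line (15273 genes in TPC1, 15900 in K1, 4 residual degrees of freedom each) or over all 16 libraries (16738 genes, 8 residual degrees of freedom). The p-values were adjusted by Benjamini-Hochberg, and a call needed an adjusted p below 0.05 and a fold change above 1.5. Standard errors are the log2 fold change over the root of F. Library totals limit the precision of low genes only, as a count of 3 corresponds to at most 0.08131 CPM in a TPC1 DMSO library, and counting limits cover counting error only.

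The members and gene lists were chosen with earlier results of these data known. Members given library by library were, per line, the 4 largest called nutlin changes, all called for GSK2830371, the 3 largest called each way for the combination against nutlin, at most 4 called interactions, the 3 largest called each way between the lines under DMSO and in the nutlin effect, and the highest member per kilobase in each class, 19 in all. *LAMP1*, *CTSK* and *MANBA* were added after their values were seen. Genes of other lists named were the p53 readouts, TFEB, TFE3 and MITF, and up to 2 with the largest called nutlin change per list. Positions, lengths and GC content are those of GENCODE v44lift37 (GRCh37), which matched 23036 symbols (90.8%).

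In TPC1 the log2 deviations of equally numbered libraries correlated at 0.496 to 0.696 across 12303 genes for each of 6 pairs of treatments. In K1 they correlated at −0.357 to 0.376, so the numbers were taken to pair the TPC1 libraries. The main fits held the group only and left this pairing out, and the replicate block below takes it in. Alternatives were DESeq2 size factors or library size alone for TMM, edgeR's filterByExpr or no filter, DESeq2 1.42.0, a replicate block, adjusted p alone, removal of each library in turn, removal of the trend with GC and transcript length, and fits of the compared groups alone. The edgeR fit of each line was tested on simulated data, for nutlin and GSK2830371 against DMSO and for the combination against nutlin. The other comparisons, the fit of all 16 libraries and the alternatives were not tested in this way. The simulated libraries were independent and had the same dispersion for all genes. The simulation therefore does not show how the fit behaves under the pairing of the TPC1 libraries. Tables and plots used Python 3.11.15.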

Additional observations from a re-analysis of the deposited data

Results flagged for a closer look

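Each value here is the log2 drug effect in K1 minus that in TPC1, from edgeR's quasi-likelihood test on all 16 libraries, and each was singled out because that difference itself passed the test and the fold threshold. Under nutlin, the glycosidases differed by −2.26 (*FUCA1*), −1.66 (*NEU1*), −1.09 (*MANBA*), −1.06 (*GAA*), −0.98 (*MAN2B1*), −0.78 (*HEXA*) and −0.62 (*GLB1*). The proteases differed by −1.55 (*TPP1*) and −1.05 (*CTSD*), and the sulfatases by −1.38 (*ARSA*), −0.84 (*SGSH*) and −0.67 (*IDS*). The lipid handling proteins differed by −0.93 (*PSAP*), −0.93 (*NPC2*) and −0.70 (*ASAH1*), and the membrane proteins by −0.99 (*MCOLN1*) and −0.81 (*LAMP1*). All 17 nutlin differences were negative, which means a smaller effect in K1. The same difference was −2.48 for *CDKN1A* and −1.95 for *MDM2*.

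With the combination, the glycosidases differed by −2.62 (*FUCA1*), −1.39 (*NEU1*), −1.17 (*MANBA*), −0.93 (*MAN2B1*), −0.76 (*HEXA*), −0.73 (*GAA*) and −0.60 (*GLB1*), whereas *GLA* differed by 1.30. The proteases differed by −1.43 (*TPP1*) and −0.77 (*CTSD*), and the sulfatases by −1.31 (*ARSA*) and −0.59 (*IDS*). The lipid handling proteins differed by −1.11 (*PSAP*) and −0.64 (*NPC2*), and the membrane proteins by −0.79 (*LAMP1*) and 0.59 (*NPC1*). The nutlin and combination effects of a line share its DMSO libraries, and line and medium cannot be told apart. Leaving out some single library took away the call of *GLB1* (to −0.54 at the smallest) and *ASAH1* (−0.58) for nutlin, and of *GLB1* (−0.52), *IDS* (−0.49), *NPC2* (−0.47), *GAA* (−0.54) and *NPC1* (0.35) for the combination. Other settings also took calls away. For nutlin these were *GLB1* with library size alone (−0.56) or filterByExpr (−0.57) and *IDS* with the GC and length trend removed (−0.55). For the combination, DESeq2 and edgeR with DESeq2 size factors or filterByExpr took away *GLB1* (−0.58 in each) and *IDS* (−0.57 in each). Library size alone took away *GLB1* (−0.49), *IDS* (−0.48) and *NPC2* (−0.53), removal of the GC and length trend *IDS* (−0.52) and *NPC2* (−0.50), and no filter *NPC1* (0.55).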

How the results depend on the processing

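Member counts stayed within 1.5 times of the values above in 449 of 486 recomputed counts. Of 8091 recomputed values of single members 7861 kept their side of the thresholds, 93 lost a call, 137 gained one and 0 reversed. With adjusted p alone, TPC1 counts became 1 lowered by nutlin, 3 raised by GSK2830371, 3 lowered by the combination, and 3 raised and 10 lowered by the combination against nutlin. With adjusted p alone, the K1 counts raised became 12 (nutlin), 9 (GSK2830371), 20 (combination) and 4 (combination against nutlin), and 19 were higher in K1 than in TPC1 under DMSO. With library size alone, GSK2830371 raised 2 members in TPC1. With the GC and length trend removed, nutlin raised 1 member in K1, and with adjusted p alone as well, a setting chosen after seeing the data, GSK2830371 raised 1. Without a filter the TPC1 interaction was lowered for 10 members and the combination effect was larger in K1 for 1. The replicate block, which applies to the paired TPC1 libraries, gave 10 lowered interactions in TPC1 with *TPP1* (−0.63), *NEU1* (−0.80), *NPC2* (−0.65) and *MCOLN1* (−0.60) added, and changed no other member's call. Leaving out 1 library in turn, where the library left in its group is taken to have the spread of the rest, gave 0 to 1 raised and 1 to 5 lowered for the combination against nutlin in TPC1, 0 to 12 lowered interactions in TPC1, 0 to 1 raised by nutlin and 0 to 1 by GSK2830371 in K1, and 0 to 1 and 1 to 2 larger nutlin and combination effects in K1. The causes were not tested. Library size alone moved the median of all genes by at most 0.1094 log2, in the combination effect between the lines.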
